A study of Homo sapiens with 6 samples.

Results

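The transforming growth factor–β (TGF-β) ligands, receptors and SMADs in this report are *TGFB1*, *TGFB2*, *TGFBR1*, *TGFBR2*, *TGFBR3*, *SMAD2*, *SMAD3*, *SMAD4*, *SMAD7* and *SKIL*. They were chosen by symbol, and all 10 were found, each in 1 row, among the 15917 genes of the deposited table. Total RNA was sequenced from MDA-MB-231, an established human triple-negative breast cancer line with a mesenchymal character, in 6 libraries. The shCTRL cells, which the labels give as WT, and the cells with the hairpin shRBMS3-B3 (RBMS3 KD1) or shRBMS3-C3 (RBMS3 KD2) contributed 2 libraries each. The study's methods describe hairpins delivered by lentivirus to luciferase-labelled cells, and *RBMS3*, the targeted gene, encodes an RNA binding protein that the study relates to mRNA stability. The values described here are the authors' mean normalized counts, 1 per gene. They carry no value of a single library, so no replicate error, depth or difference between knockdown and control cells could be given from them, and the libraries that were averaged are not named in the sources used here. No neighbouring levels in the order below can therefore be said to differ beyond their spread.

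TGF-β is made as a latent dimer that integrins and proteases release in the matrix. The free ligand is bound by the type II receptor, which phosphorylates the type I receptor, while betaglycan, the type III receptor, presents ligand to the pair. The type I receptor phosphorylates SMAD2 and SMAD3, which join SMAD4 and enter the nucleus to regulate transcription. SMAD7 blocks the activated type I receptor, and SKIL (SnoN) holds SMAD complexes in a repressed state. The pathway halts the growth of normal epithelium and is known in advanced breast cancer for its part in invasion and metastasis.

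Among transcripts bound by RBMS3 in CLIP-seq, the study reported the vascular endothelial growth factor and TGF-β pathways as the top gene sets. Which of the 10 genes were bound was not examined here. The study asks which transcripts depend on RBMS3, and it centres on an AUA element in 3′ untranslated regions (3′UTRs). As its CLIP-seq methods write it, the element has 7 bases. The first is A, G or T, the second A or T, then follow ATA, A or T, and A. It was searched in the representative GENCODE release 44 transcript of each gene, on the transcript strand and with overlapping matches counted. At least 1 match was found in 9 of the 10 genes, beside 85.04% of the 12273 listed genes with a 3′UTR, so its presence alone does not set the group apart. The sites below are shown because they represent the dense runs in *TGFBR2* and *SMAD7* and the matches with AATAAA that lie closest to the transcript end in 6 of the genes. Capitals mark the 7 matching bases, and coordinates are those of GRCh38.

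TGFBR2, run of repeats, chr3:30691907-30691933, plus strand: ttttatatatATATATAtatatctata
SMAD7, run of repeats, chr18:48920091-48920117, minus strand: attttatgttATATATAaatatattat
TGFB2, last match, chr1:218444584-218444610, plus strand: taaataggatTAATAAAaaaagtaatt
TGFBR2, last match, chr3:30694073-30694099, plus strand: ttattagattGAATAAAgcaaaatact
TGFBR3, last match with AATAAA, chr1:91680354-91680380, minus strand: tatctgtgcaTAATAAAaagatatata
SMAD2, last match, chr18:47808959-47808985, minus strand: tggtaataaaGAATAAAggtggaaatg
SMAD3, last match, chr15:67195139-67195165, plus strand: agtgcccttcTAATAAActtttcatgg
SKIL, last match, chr3:170396799-170396825, plus strand: atcaaatactAAATAAAaacttttaat

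The 6 sites near transcript ends contain AATAAA, the hexamer of the canonical polyadenylation signal. With A, G or T before it, this hexamer is itself a form of the element. In its CLIP-seq methods, the study names this signal as the most significant of the A/U-rich motifs enriched at RBMS3 sites. Over all matches, 58 of 184 in the 10 genes included AATAAA, or 31.5%, beside 36% of the matches in all listed genes.

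*TGFB1*, *SMAD3*, *TGFBR2* and *TGFB2* were the 4 most abundant of the 10 transcripts, and *SMAD7* was the least abundant, except per kilobase of the union of exons, where *SMAD4* was lowest. By the authors' mean, from 91.0 for *SMAD7* to 3792 for *SMAD3*, 7 of the 10 lay above the median of 363.8 over all listed genes. Longer transcripts give more reads, so levels of different genes were compared as the authors' mean per kilobase of the representative transcript. On that scale the 10 genes spanned 38.9-fold, from 27.2 to 1059, with a median of 92.98 beside 136.5 for listed genes with an annotation. Above that median lay 4 of the 10, and *TGFBR1*, at 135.8, lay just below it. By its mean, *SMAD4* was at percentile 54.4 of listed genes but 44.8 of protein-coding ones. As many listed genes lie above a median as below it, so neither count sets the group apart.

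**Figure D1:**
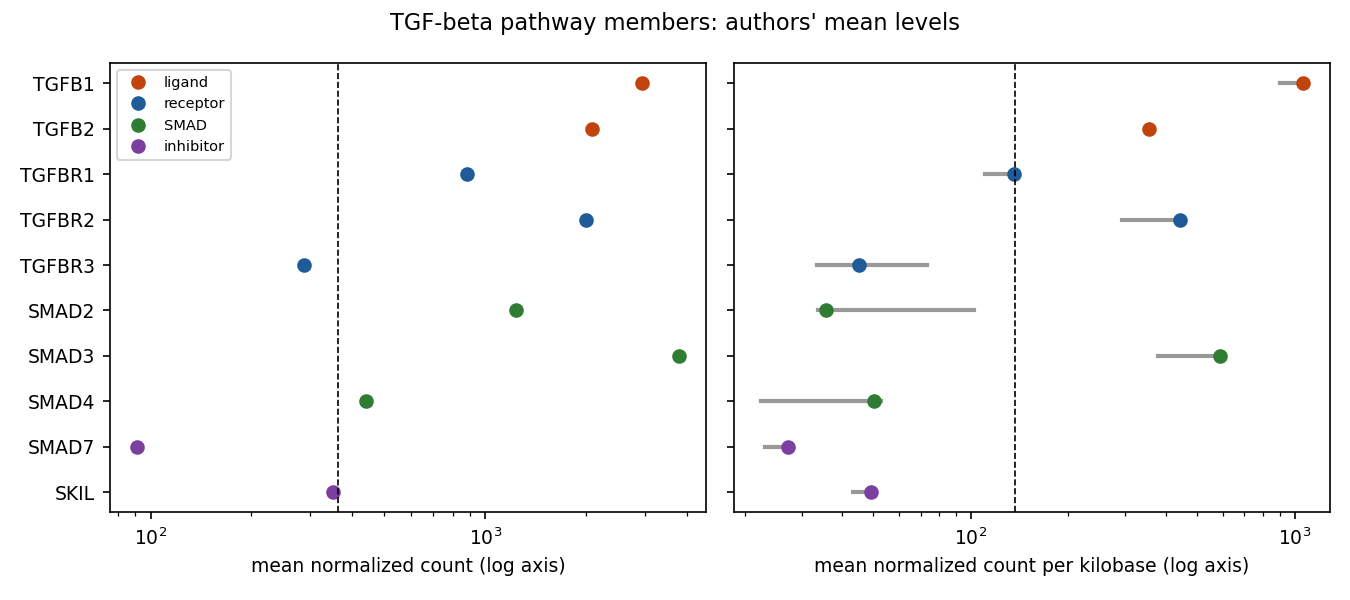
Authors' mean normalized count of each gene (left) and the same value per kilobase of representative transcript (right), both on log axes. Colours give the role, dashed lines the medians of 363.8 and 136.5 over listed genes, and grey bars the range over 4 choices of transcript length, which are not errors; *TGFB1* was highest per kilobase at 1059 and *SMAD7* lowest at 27.2.

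Both ligand transcripts were among the more abundant listed. *TGFB1* (ENSG00000105329), the prototype ligand, maps to chr19:41301587-41353922 (minus strand). Its authors' mean was 2943, at percentile 92.2 of listed genes, and its level per kilobase was 1059, the highest of the 10. *TGFB2* (ENSG00000092969), a ligand that depends more on betaglycan for receptor binding, maps to chr1:218345336-218444619 (plus strand). It had an authors' mean of 2086 and a level of 355 per kilobase, so *TGFB1* was 2.98 times as abundant per kilobase. Among the ligands and receptors, overlap with the exons of another annotated gene was found for *TGFB2* alone. Its exons share 701 bases with the antisense gene *TGFB2-AS1* and 1371 bases with *TGFB2-OT1* on the same strand, neither of which is listed. How the authors assigned reads between them is not given in the sources used here.

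Among the receptors the order per kilobase was *TGFBR2*, *TGFBR1* and then *TGFBR3*. *TGFBR2* (ENSG00000163513), the ligand-binding type II kinase, maps to chr3:30606601-30694142 (plus strand), and had an authors' mean of 2003 and a level of 442 per kilobase. *TGFBR1* (ENSG00000106799), the type I kinase that acts on SMAD2 and SMAD3, maps to chr9:99104038-99154192 (plus strand). Its authors' mean was 882 and its level 136 per kilobase, close to the median of listed genes. The type II transcript was thus 3.25 times as abundant as the type I transcript, and 2.54 times when the longest transcript of each gene was used. *TGFBR3* (ENSG00000069702), betaglycan, maps to chr1:91680343-91906335 (minus strand). It had the lowest values of the receptors, with an authors' mean of 287 and a level of 45.2 per kilobase, at percentile 23.6. Per kilobase, *TGFBR2* was 9.77 times as abundant as *TGFBR3*, and 6.06 times with the shortest transcript of the same coding length, which raised *TGFBR3* to 73.0. Over the union of annotated exons, *TGFBR2* was at 292 per kilobase and remained the highest of the receptors.

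*SMAD3* was the most abundant of the SMAD transcripts on both scales, and the place of *SMAD2* depended on the transcript length. *SMAD3* (ENSG00000166949), a receptor-activated SMAD that binds DNA, maps to chr15:67063763-67195173 (plus strand). With an authors' mean of 3792 it ranked 893 of all listed genes, and its level was 587 per kilobase, or 379 over the union of exons. *SMAD2* (ENSG00000175387), the other receptor-activated SMAD of the pathway, maps to chr18:47808957-47931146 (minus strand). Its authors' mean of 1232 stood at percentile 78.9, but its level per kilobase was 35.6, at percentile 19.2. The representative *SMAD2* transcript is 34626 bases long, with a 3′UTR of 32870 bases, the longest of any listed gene. With the shorter of the 2 transcripts that have a coding sequence of that length, 12075 bases long, the *SMAD2* level was 102 per kilobase. *SMAD3* was therefore 16.5 times as abundant as *SMAD2* with the representative transcripts and 5.75 times with the shorter ones. How much of the long 3′UTR these cells transcribe cannot be read from a mean per gene.

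*SMAD4* (ENSG00000141646), the common partner of the activated SMADs, maps to chr18:51028528-51085045 (plus strand). It had an authors' mean of 440, at percentile 54.4, and a level of 50.1 per kilobase, or 22.4 over the union of the exons of its 24 annotated transcripts. *SMAD3* was 11.7 times as abundant as *SMAD4* per kilobase, while *SMAD2* was at 0.71 of *SMAD4* with representative transcripts and at 1.94 times with the shorter ones, so their order was not settled. A same-strand gene, ENSG00000267699, shares 814 exon bases with *SMAD4* and is not listed.

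Of the inhibitors, *SMAD7* stood at the low end and *SKIL* among the lower genes, next to *SMAD4* and *TGFBR3*. *SMAD7* (ENSG00000101665), the inhibitory SMAD that recruits ubiquitin ligases to the receptor, maps to chr18:48919853-48950965 (minus strand). Its authors' mean of 91.0 was the lowest of the 10, at percentile 23.3, and its level was 27.2 per kilobase. *SKIL* (ENSG00000136603), the SMAD corepressor, maps to chr3:170357342-170396835 (plus strand), and had an authors' mean of 351 and a level of 49.0 per kilobase. *SKIL* was 1.80 times as abundant as *SMAD7* per kilobase, and *SMAD3* was 21.5 times as abundant as *SMAD7*.

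The 3′UTRs of the group were long and moderately rich in A and U. Their median length was 3907 bases beside 1379 for listed genes, and 9 of the 10 exceeded that listed median. Median A+U content was 61.3% beside 57.9%. The number of AUA matches had a median of 11.0 in the 10 genes and 3 in listed genes. Scaled to length the gap was smaller, at 3.23 and 2.45 matches per kilobase of 3′UTR, and 6 of the 10 genes lay above the listed median. Of the 184 matches, 91 lay in the long 3′UTR of *SMAD2*, and 93 remained without it. Per kilobase of 3′UTR, *SMAD2* had 2.77 matches, at percentile 55.25 of listed genes. With overlapping matches counted once it had 2.40, beside a listed median of 2.12.

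**Figure D2:**
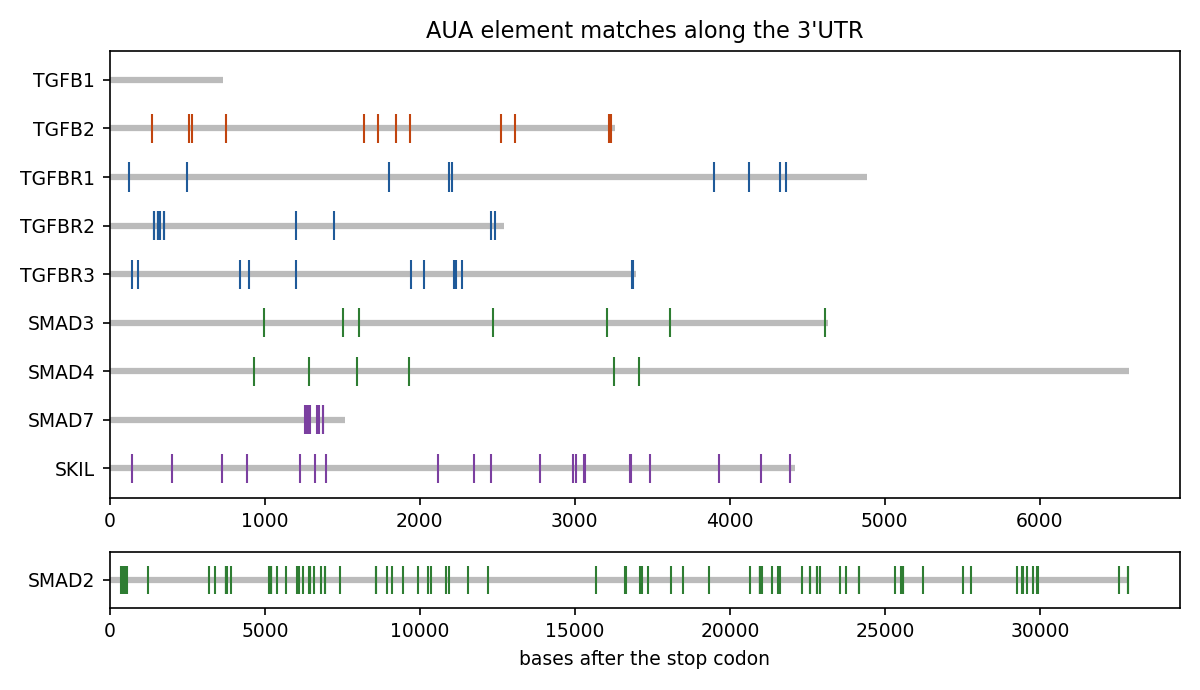
Positions of AUA element matches (vertical lines) along the 3′UTR (grey bar) of each gene, in bases after the stop codon, with *SMAD2* on an axis of its own. *TGFB1* has no match in 729 bases, *SMAD7* has its 10 matches from base 1262 onward, and *TGFBR2* has 11 of its 15 in the stretch from base 284 to base 351.

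With every overlapping match counted, the densest 3′UTRs were those of *SMAD7*, with 6.58 matches per kilobase at percentile 88.6 of listed genes, and *TGFBR2*, with 5.90 per kilobase at percentile 85.7. In both, much of the density came from overlapping matches, such as the sites printed above. In *TGFBR2* these lay mostly in runs of alternating T and A. In *SMAD7* the printed stretch was shorter and interrupted by AAA, and the other overlaps lay in separate pairs of matches. With overlapping matches counted once, the 10 matches of *SMAD7* became 5 and the 15 of *TGFBR2* became 7, and the order turned. *SKIL* was then densest at 4.53 per kilobase of 3′UTR, followed by *TGFB2* at 3.68 and *TGFBR3* at 3.53, ahead of *SMAD7* at 3.29 and *TGFBR2* at 2.75, beside a median of 2.12 in listed genes. *SKIL* had 21 matches, or 4.75 per kilobase, in a 3′UTR of 70.3% A+U, at percentile 95.4 for A+U content. They were spread over its whole 4418 bases, and 20 remained when overlaps were counted once.

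*TGFBR3* and *TGFB2* had 3.83 and 3.68 matches per kilobase of 3′UTR. *TGFBR1* had 9 matches in 4887 bases, or 1.84 per kilobase, below the listed median of 2.45. Its last match lay 517 bases before the transcript end. *SMAD3* and *SMAD4* also lay below the listed median, with 1.51 and 0.91 matches per kilobase, although their 3′UTRs of 4633 and 6575 bases were longer than most. *TGFB1* differed from the other 9 genes in having no match, with a 3′UTR of 729 bases and 44.2% A+U. In *TGFB2*, *TGFBR2*, *TGFBR3*, *SMAD2*, *SMAD3* and *SKIL*, the last match lay within 60 bases of the transcript end. These are 6 of the 10 genes, beside 60.7% of listed genes with a 3′UTR, so this placement does not set the group apart. A match is a description of letters and was not tested as a site of RBMS3 binding.

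The other genes of the pathway were taken from 5 lists. Of the 12 genes for latency and activation, 10 were listed, with a median of 111 per kilobase. The highest authors' mean in this list was that of *THBS1*, thrombospondin, an activator of latent TGF-β, at 16029 and 2058 per kilobase. The lowest was that of the third ligand, *TGFB3*, at 51.9 and 15.1 per kilobase, so that *TGFB1* and *TGFB2* were both more abundant than *TGFB3*. The genes *LRRC32* and *ITGB6* were not listed.

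Of 7 other receptors and co-receptors, 5 were listed, and the endothelial receptors *ENG* and *ACVRL1* were not. *NRP1*, a co-receptor that also binds TGF-β, had an authors' mean of 8705 and 1543 per kilobase, above all 3 TGF-β receptors. *BAMBI*, a decoy receptor without a kinase, had 120 and 70.9 per kilobase. Among 9 other SMADs and partners, 8 were listed and *FOXH1* was not. *CREBBP*, an acetyltransferase coactivator, was highest by authors' mean at 3403, and *SMAD9*, of the bone morphogenetic protein branch, was lowest at 54.8. Their levels were 315 and 9.86 per kilobase.

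The list drawn up for other inhibitors and corepressors held 10 genes, among them the deubiquitinase *USP15*. All 10 were listed, and 8 of them lay above the median per kilobase of listed genes. Below it lay *USP15* at 49.5 and *WWP1* at 123 per kilobase, as did *SMAD7* and *SKIL*. *SMAD6* and the decoy receptor *BAMBI*, placed in other lists, lay below it too, at 56.1 and 70.9. *SMURF2*, a ubiquitin ligase that partners SMAD7, was highest by authors' mean at 4147, with 665 per kilobase. *TGIF1*, a corepressor of SMAD2, was lowest by authors' mean at 456, with 144 per kilobase. The count above the median therefore depends on which genes the list holds. These are levels within 1 set of means, and no difference between them was tested.

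Of 19 genes known as TGF-β targets in various cells, 17 were listed, with a median of 426 per kilobase, and 13 lay above the median of listed genes. *CCN1*, listed as *CYR61* and encoding a matricellular protein, was highest by authors' mean at 17717, with 7777 per kilobase. *TAGLN*, which encodes transgelin, was lowest at 70.5, with 18.6 per kilobase. *SNAI1* and *CDKN2B* were not listed. Many of these genes respond to other pathways too, and their levels do not measure TGF-β signalling.

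**Figure D3:**
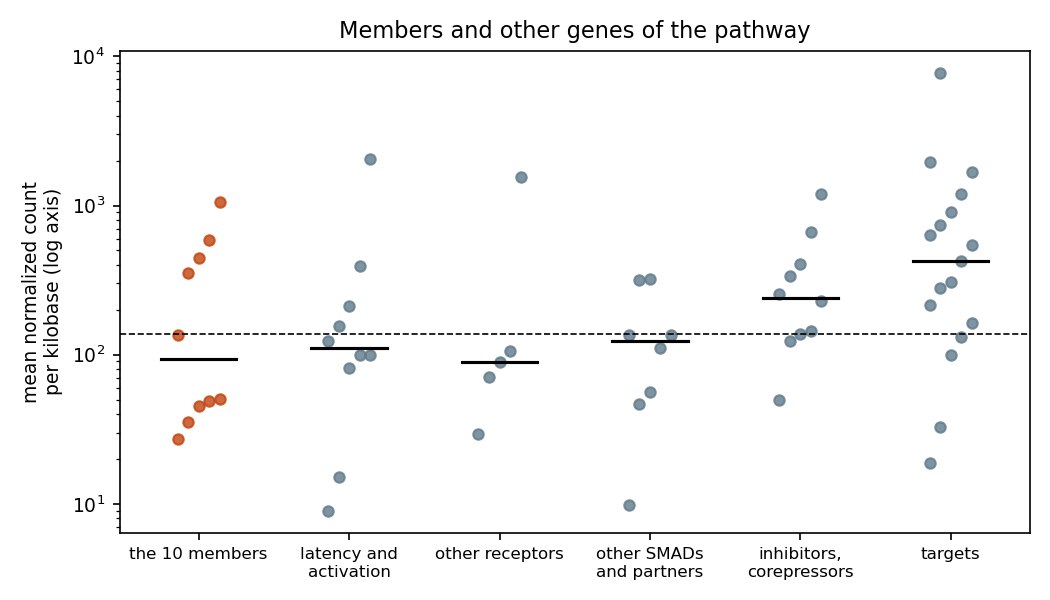
Authors' mean normalized count per kilobase (log axis) of the 10 genes and of the listed genes of 5 pathway lists, 1 point per gene, with list medians as short bars and the median of 136.5 over listed genes as a dashed line. The sideways spread of the points has no meaning; the medians run from 88.8 for other receptors to 426 for targets, beside 92.98 for the 10 genes.

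The labelled cell type was checked against its markers. *VIM*, *CD44*, *ZEB1*, *AXL* and *CAV1*, expected in mesenchymal breast cancer cells, were all above the listed median per kilobase, *ZEB1* least so at percentile 56.15. The luminal genes *ESR1*, *PGR* and *FOXA1* were not listed, nor was the leukocyte gene *PTPRC*, and *CDH1*, *EPCAM* and *GATA3* stood at percentiles 3.64, 25.7 and 34.2 by authors' mean. The keratins *KRT8* and *KRT19*, placed with the luminal or epithelial genes that should be low, were instead abundant, at percentiles 99.3 and 97.5. *CD68*, used as a macrophage marker, was at percentile 84.3. The endothelial gene *PECAM1* and the fibroblast gene *COL1A1* were at percentiles 18.6 and 36.5. *RBMS3* had an authors' mean of 272, at percentile 43.3, and a level of 32.1 per kilobase, at percentile 17.3. A mean over libraries cannot show how far it was lowered in the knockdown cells.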

How the data were processed

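Total RNA of 6 libraries was made into stranded, ribosomal-depleted libraries and sequenced in paired ends. The deposited signal used here is a mean normalized count per gene, that is, counts divided by size factors and averaged over libraries by the authors. The submitters' processing notes name Salmon, DESeq2 and the build hg38, with no role, and their annotation is not given in the sources used here. The same table holds the authors' own comparison of knockdown and control (fold changes, their standard errors, a test statistic and p-values), which was not used. No row is below 26.7, so rarely read genes are missing from the table, and the depth of the libraries is unknown.

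GENCODE release 44 (GRCh38) was matched on the Ensembl identifier and held 15829 of 15917 genes. The representative transcript was MANE Select, otherwise Ensembl canonical, otherwise that with the longest coding sequence. The 3′UTR was taken from the base after the stop codon and needed at least 7 bases. Percentiles are the share of listed genes at or below a value. Named genes were the 10 members, *RBMS3*, and in each pathway list the highest and lowest authors' mean and the genes not listed. Per kilobase, the highest or the lowest was another gene in every list but that of the targets. All 17 genes of the cell type marker lists were named as a check of the cell line. *TGFB2-AS1*, *TGFB2-OT1* and ENSG00000267699 were named for their overlap, and *USP15*, *WWP1* and *SMAD6* as further genes below the median per kilobase. Members and lists were chosen with earlier results of these data known. The printed sites were chosen after the matches were seen. No test was made. The motif search was tested on simulated sequences of G and C with planted, well-separated matches. That check does not cover A+U-rich sequence, the extraction of 3′UTRs or the strand. Python 3.11.15 and matplotlib 3.10.9 were used.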

Additional observations from a re-analysis of the deposited data

How the results depend on the processing

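The median level of the 10 genes was 92.98 per kilobase with representative transcripts, 92.51 with the longest transcript and 76.79 with the union of exons. It was 118.9 with the shortest transcript of the same coding length, an alternative chosen after seeing the data. Places in the order changed for 2 genes with the longest transcript, for 6 with the union of exons and for 4 with the shortest, while *TGFB1* and *SMAD3* stayed first and second in each. The median percentile by authors' mean was 75.16 among all listed genes and 69.78 among protein-coding ones. The 184 AUA matches were also 184 with the longest 3′UTR, and 157 with overlaps counted once, also chosen after seeing the data. The longest 3′UTR differed only for *SMAD3* (4637 beside 4633 bases) and *SMAD4* (6578 beside 6575), so the first check could hardly move the count. The shorter *SMAD2* transcript was not searched. The share of genes with a match was 85.04%, and 85.36% above the median authors' mean. No paired analysis was possible because only means over libraries were used, which hold no replicate. For the same reason no replicate was left out, no normalization or count filter was varied, and neither hairpin could be compared with control.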
